A study of Mus musculus with 2 samples.

Results

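The surface receptors Pdcd1, Havcr2, Lag3, Tigit, Ctla4, Entpd1, Cd244, Cd101 and Cd38, which restrain or mark chronically stimulated lymphocytes, were followed across the cells of a mouse melanoma. They were taken by gene symbol from the 31055 gene features of the matrix, and all 9 were found. Cells of B78ChOVA, a mouse melanoma line that expresses ovalbumin, in Matrigel and 50 µl in all, had been placed under the flank skin of mice, and the tumour was taken on day 16. Live sections of about 160 µm were tagged by ZipSeq, a method that writes DNA barcodes onto cells by position, and were then dissociated, sorted and sequenced as single cells in droplets. All cells thus came from B78ChOVA tumour tissue at 1 time point, and no treatment is named. The strain, genotype and age of the mice, the number of tumours and the sort gate were not given in the sources used here. Among its features the matrix has the reporters dsredexpress1 and mVenus, with no word in these sources on which cells carried them. The matrix bears the label CD206R, which these sources do not explain. There was 1 gene expression library and 1 spatial barcode library of the same cells, so no test between samples was possible. Ranges given in parentheses are 95% intervals for counting error, and the spread between cells, tumours or libraries is not in them.

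T cells that meet antigen for a long time carry several inhibitory receptors at once. PD-1 (Pdcd1), CTLA-4 (Ctla4), LAG-3 (Lag3), TIM-3 (Havcr2) and TIGIT (Tigit) dampen T cell receptor signalling or compete with costimulation, and their joint presence is a hallmark of exhausted CD8 T cells in tumours. CD39 (Entpd1) and CD38 (Cd38) are surface enzymes that act on extracellular ATP and NAD, 2B4 (Cd244) is a SLAM-family receptor for CD48 on NK cells and other leukocytes, and CD101 marks late exhausted T cells. Several are also used by myeloid cells, such as TIM-3 on dendritic cells and CD39 on macrophages.

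Promoter sequence is shown for a pair of receptors concentrated in T cells here (Pdcd1 and Ctla4) and a pair shared with myeloid cells (Havcr2 and Cd244). RefSeq promoter entries (GRCm38.p6) matched 8 of the 9 receptors; Lag3 was not matched. Each stretch is the 250 bases before the transcription start, 5′ to 3′. Capitals mark, on either strand, the NFAT core GGAAA (reverse complement TTTCC), the AP-1 motif TGANTCA and the ETS core GGAAGT (reverse complement ACTTCC).
Pdcd1 (chr1:94052554-94052803, minus strand): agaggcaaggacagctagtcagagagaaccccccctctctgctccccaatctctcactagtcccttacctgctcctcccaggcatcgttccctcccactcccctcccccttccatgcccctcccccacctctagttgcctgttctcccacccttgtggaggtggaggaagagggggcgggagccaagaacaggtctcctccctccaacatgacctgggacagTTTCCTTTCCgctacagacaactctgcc
Ctla4 (chr1:60908775-60909024, plus strand): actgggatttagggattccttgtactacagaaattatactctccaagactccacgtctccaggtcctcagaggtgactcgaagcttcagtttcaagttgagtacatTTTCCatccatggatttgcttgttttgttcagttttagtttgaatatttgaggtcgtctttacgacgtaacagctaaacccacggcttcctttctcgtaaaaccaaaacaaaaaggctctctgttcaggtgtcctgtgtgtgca
Havcr2 (chr11:46454681-46454930, plus strand): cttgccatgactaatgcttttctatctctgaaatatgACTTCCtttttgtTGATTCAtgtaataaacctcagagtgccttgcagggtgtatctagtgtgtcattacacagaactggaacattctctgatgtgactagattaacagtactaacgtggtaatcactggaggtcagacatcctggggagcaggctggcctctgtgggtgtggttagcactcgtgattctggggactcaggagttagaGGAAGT
Cd244 (chr1:171558943-171559192, plus strand): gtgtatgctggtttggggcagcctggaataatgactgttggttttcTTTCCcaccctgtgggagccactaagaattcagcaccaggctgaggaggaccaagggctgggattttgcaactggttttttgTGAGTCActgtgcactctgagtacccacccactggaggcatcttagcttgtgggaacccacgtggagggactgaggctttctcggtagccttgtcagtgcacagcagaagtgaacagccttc
Of 32851 promoter windows of this length, 55.6% held the NFAT core, 6.75% AP-1 and 19.7% the ETS core. Pdcd1 held 2 NFAT cores and Ctla4 1, with no AP-1 or ETS match in either. Havcr2 held 1 AP-1 motif and 2 ETS cores and no NFAT core, and Cd244 held 1 NFAT core and 1 AP-1 motif. These matches are letters in a window, and binding was not measured. In the GRCm38 annotation Pdcd1 (ENSMUSG00000026285) at chr1:94038305-94052553, Ctla4 (ENSMUSG00000026011) at chr1:60887000-60915832, Havcr2 (ENSMUSG00000020399) at chr11:46454935-46481255 and Cd244 (ENSMUSG00000004709) at chr1:171559193-171609746 are protein-coding genes. Ctla4, Entpd1 and Cd38 overlap other annotated genes on the same strand, and reads in the overlap cannot be told apart.

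The matrix held 117528298 gene UMIs (unique molecular identifiers, each 1 captured RNA molecule). After limits on UMIs (1000), genes (500) and mitochondrial share (10%), 4236 cells were left, with 1027 to 215512 UMIs each and a median of 23132. The 9 receptors gave 22041 UMIs in them, and both libraries share the barcodes of 1 matrix, in which none of those with at least 500 UMIs occurred more than once. Marker genes that include none of the 9 put cells into CD8 T-like (221 cells), Foxp3-negative CD4 T-like (88), regulatory T-like or Treg-like (88), NK-like (66), macrophage-like (2385), monocyte-like (458), nonclassical monocyte-like (50), cDC1-like (40), cDC2-like (114), migratory DC-like (40) and smaller classes. An intermediate class of 128 cells had both the monocyte gene Ly6c2 and C1q, and 251 cells with T and C1q markers together were kept apart as possible doublets. Levels below are CPM, a gene's UMIs summed over a class and scaled to equal class totals. The 6 T markers summed to 6463 CPM in the CD8 T-like class, against 7.08 in the macrophage-like class. The C1q genes summed to 194, against 16359.5. Median depth was 8721 UMIs in CD8 T-like cells and 29424 in macrophage-like cells.

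The receptors divided into a T cell group and a group shared with myeloid cells. Over 463 lymphoid cells of 4 classes and 3226 myeloid cells of 8 classes, Ctla4 was at 249 CPM in lymphoid cells, against 0.549 in myeloid cells, a ratio of 453 (339.9 to 618). Lag3 was at 270.5 CPM in lymphoid cells, against 3.83 in myeloid cells, a ratio of 70.6 (62.7 to 79.7), and Pdcd1 at 90.9 CPM in lymphoid cells, against 4.11 in myeloid cells, a ratio of 22.1 (19.3 to 25.4). Tigit had 27 UMIs in lymphoid cells and none in myeloid cells, at least 142-fold higher in lymphoid cells against a floor of 3 counts over the myeloid classes. Cd38 was at 17.3 CPM in lymphoid cells, against 6.9 in myeloid cells, a ratio of 2.5 (2.0 to 3.11), and Cd101 at 8.28 CPM in lymphoid cells, against 4.01 in myeloid cells, a ratio of 2.06 (1.48 to 2.81). Havcr2 was at 51.6 CPM in lymphoid cells, against 47.9 in myeloid cells, a ratio of 1.08 (0.954 to 1.22), which does not separate them. Entpd1 was at 23.4 CPM in lymphoid cells, against 58.5 in myeloid cells, a ratio of 0.40 (0.333 to 0.476), and Cd244 at 22.5 CPM in lymphoid cells, against 40.7 in myeloid cells, a ratio of 0.553 (0.459 to 0.661), so both were lower in lymphoid cells. Myeloid classes held 84.2% of all Havcr2 UMIs, 86% of Entpd1, 87% of Cd244, 72.7% of Cd101, 72.7% of Cd38, 35.2% of Pdcd1, 13.4% of Lag3 and 2.22% of Ctla4. By number of cells these classes are the larger, and macrophage-like cells held 34.6% of Pdcd1 UMIs, beside 31.6% in CD8 T-like cells.

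**Figure D1:**
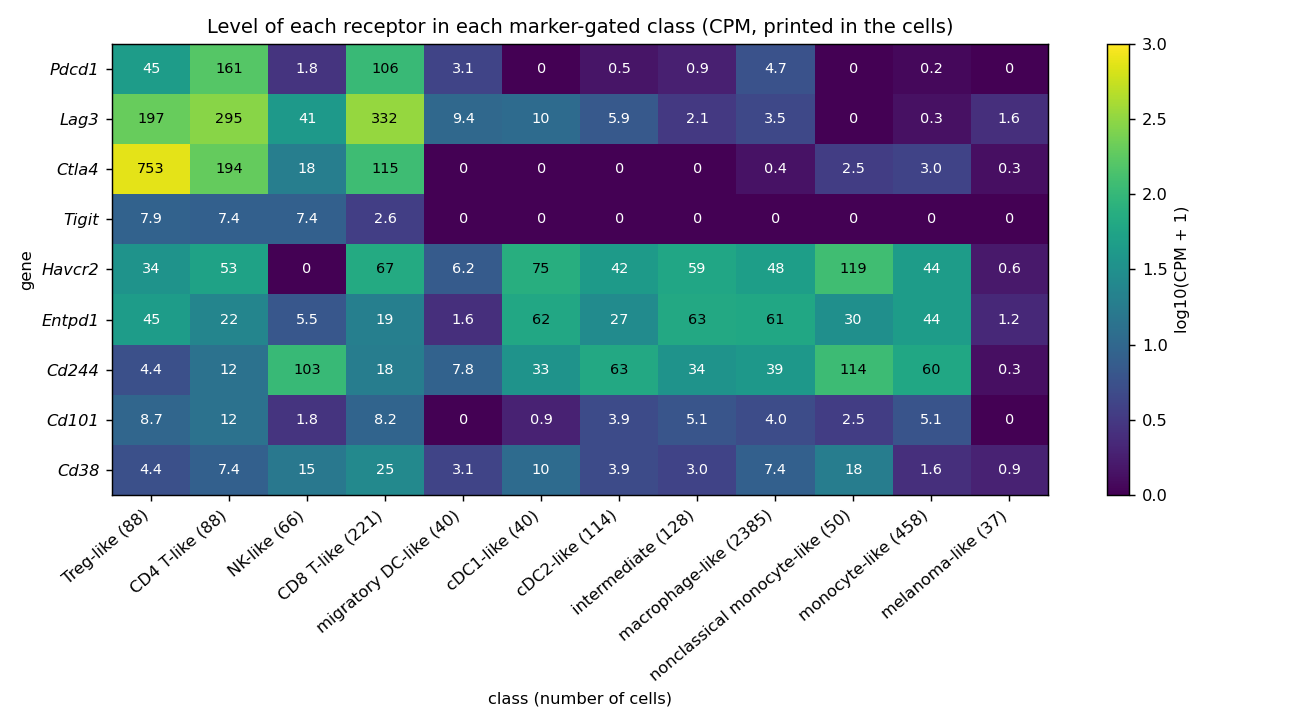
Level of each receptor (rows) in each marker-gated class (columns, with the number of cells), with CPM printed in each square and log10(CPM + 1) as colour. Left out are the pDC-like class (11 cells, Lag3 at 291 CPM) and the B-like class (17 cells, Cd38 at 54.6 CPM). Among the classes drawn, Ctla4 peaks in Treg-like cells at 753 CPM, and Lag3 and Pdcd1 stand out in the 3 T-like classes. Havcr2, Entpd1 and Cd244 are spread over myeloid classes.

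Free RNA in the droplets gives a background. It was read from 68497 barcodes with 10 to 100 UMIs and held Havcr2 and Entpd1 at 38.9 CPM each, Cd244 at 28.3, Ctla4 at 27.8, Lag3 at 20.7 and Pdcd1 at 9.93. Macrophage-like cells held the T marker list at 1.37% of its free RNA level and Ctla4 at 1.44%. Their Pdcd1 stood at 47.4% and their Lag3 at 16.7%. CD8 T-like cells held the C1q genes at 1.82%, Entpd1 at 48.8% and Cd244 at 62.3% of their free RNA levels. The gate itself kept T markers low in macrophage-like cells and C1q low in CD8 T-like cells. The shares of these markers therefore set no background level for the receptors. Melanoma-like cells (37) had no UMI of Pdcd1, Tigit or Cd101 and held the other receptors at 0.311 to 1.56 CPM.

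CD8 T-like cells were high in Lag3, Ctla4 and Pdcd1. Lag3 was at 332 (312 to 353) CPM in CD8 T-like cells and 3.46 (3.05 to 3.91) in macrophage-like cells, a ratio of 95.9 (83.6 to 110.4). Ctla4 was at 115, against 0.399, a ratio of 289 (199 to 435), and Pdcd1 at 106, against 4.71, a ratio of 22.4 (19.2 to 26.1). Cd38 had a ratio of 3.39 (2.64 to 4.31) and Cd101 of 2.05 (1.3 to 3.08), the Cd101 value resting on 25 UMIs in CD8 T-like cells. Entpd1 at 0.311 (0.235 to 0.402) and Cd244 at 0.456 (0.342 to 0.597) were lower in CD8 T-like cells, and Havcr2 lay at 1.41 (1.22 to 1.62). Of 8 receptors compared, 5 were at least 2-fold higher and 2 at least 2-fold lower, beside 12.3% and 19.9% (32.2% together) of 10977 genes.

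Shares of cells with a UMI follow depth. With cells thinned to 2000 UMIs, Lag3 was seen in 35% (28.7 to 41.7) of CD8 T-like cells, Ctla4 in 22.3% (17 to 28.4), Pdcd1 in 14.5% (10.2 to 19.9) and Havcr2 in 8.64% (5.28 to 13.2). Before thinning these shares were 58.4%, 55.2%, 41.2% and 33.9%. No melanoma-like cell kept a receptor UMI after thinning, and 0 of 37, taken as 3 cells at most, allows a share of cells with a UMI of up to 8.11%. At least 1 receptor was seen in 86% of thinned Treg-like cells, 57.3% of CD8 T-like, 51.7% of CD4 T-like, 33.8% of NK-like and 28.1% of macrophage-like cells. At least 3 were seen in 21 of 220 CD8 T-like cells and 1 of 2357 macrophage-like cells. Lag3 and Ctla4 met in 26 thinned CD8 T-like cells, where the product of their shares gives 17.1, and Pdcd1 and Lag3 in 14, where it gives 11.2. Of 17 pairs whose product was at least 1 cell, 12 lay above it and 5 did not, such as Havcr2 with Ctla4 in 4 cells beside 4.23 and Ctla4 with Cd244 in 2 beside 2.23. In Treg-like cells 5 of 12 such pairs lay above it, in CD4 T-like cells 5 of 6 and in NK-like cells 0 of 1. The CD8 T-like product pools the clusters described below, which differ in Lag3, Pdcd1 and Havcr2, and the part of this was not tested.

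Treg-like cells stood apart in Ctla4 and Entpd1. Ctla4, which Treg cells use to strip costimulatory ligands from antigen-presenting cells, was at 753 (703 to 805) CPM in Treg-like cells and 115 (104 to 128) in CD8 T-like cells, a ratio of 6.53 (5.76 to 7.41). After thinning it was seen in 76.7% of Treg-like cells and 22.3% of CD8 T-like cells. Entpd1 was at 44.5, against 19, a ratio of 2.35 (1.58 to 3.48). Pdcd1 was lower at 44.5, against 106, a ratio of 0.422 (0.308 to 0.568). Cd244 and Cd38 had 5 UMIs each in Treg-like cells, with ratios of 0.247 (0.0772 to 0.614) and 0.174 (0.0548 to 0.423), and Lag3 and Havcr2 had ratios of 0.594 (0.512 to 0.687) and 0.508 (0.351 to 0.719). At least 2-fold, 2 of the 8 receptors compared were higher and 3 lower, beside 5.61% and 4.35% (9.96% together) of 8142 genes. Over CD4 T-like cells the ratio was 3.88 (3.27 to 4.63) for Ctla4 and 0.278 (0.197 to 0.386) for Pdcd1. This put 2 of 5 receptors at least 2-fold higher and 1 at least 2-fold lower, beside 4.97% and 4.48% (9.45% together) of 6404 genes. Tigit had 9 UMIs in Treg-like cells and 8 in CD8 T-like cells, too few for a comparison.

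The CD8 T-like cells are the same in the comparisons with Treg-like, CD4 T-like and NK-like cells. In CD4 T-like cells Pdcd1 was at 161 (134 to 191) CPM, against 106 (94.4 to 118) in CD8 T-like cells, and Ctla4 at 194, against 115, ratios of 1.52 (1.23 to 1.87) and 1.68 (1.38 to 2.03). Lag3 had a ratio of 0.889 (0.769 to 1.02), which does not separate the classes, and Cd38 was lower at 0.294 (0.105 to 0.671). Among 8 receptors compared, 0 passed 2-fold upward and 1 downward, beside 5.49% and 4.85% (10.3% together) of 7981 genes. Of 130 Pdcd1 UMIs in CD4 T-like cells, 96 came from few cells. These 20 CD4 T-like cells, in the Prc1 cluster described below, held Pdcd1 at 271 (219.5 to 331), Lag3 at 438 (371 to 512) and Havcr2 at 104 (73.5 to 144). The 50 in the largest CD4 cluster held them at 60.4 (33 to 101), 90.5 (56 to 138) and 4.31 (0.109 to 24). With classes taken from clusters the log2 ratio of Pdcd1 was -1.54, against 0.60 by marker, so its direction rests on the way cells were named.

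NK-like cells were high in Cd244 and low in Pdcd1, Lag3 and Ctla4. Cd244 was at 103 (77.9 to 134) CPM in NK-like cells and 17.6 (13.3 to 23) in CD8 T-like cells, a ratio of 5.85 (3.95 to 8.66). Havcr2 had no UMI in NK-like cells, at least 12.1-fold lower than in CD8 T-like cells against a floor of 3 counts. Pdcd1 had 1 UMI. Tigit was at 7.37 CPM from 4 UMIs, against 2.61 from 8 UMIs in CD8 T-like cells, too few for a comparison. Lag3 was at 40.5, against 332, a ratio of 0.122 (0.0761 to 0.186), and Ctla4 at 18.4, against 115, a ratio of 0.16 (0.0759 to 0.297). Past 2-fold were 1 of 7 receptors on the higher side and 5 on the lower side, beside 4.61% and 12.9% (17.5% together) of 7705 genes.

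Macrophage-like and monocyte-like cells shared Havcr2, Entpd1 and Cd244 and differed in Pdcd1, Lag3 and Cd38. Pdcd1 had 354 UMIs in macrophage-like cells (4.71 CPM) and 1 in monocyte-like cells (0.175 CPM), a ratio of 27 (4.81 to 1069). Lag3 was at 3.46, against 0.349, a ratio of 9.91 (2.72 to 82.3), and Cd38 at 7.42, against 1.57, a ratio of 4.72 (2.47 to 10.4). Havcr2 had a ratio of 1.07 (0.945 to 1.22), Entpd1 of 1.39 (1.22 to 1.58) and Cd244 of 0.641 (0.573 to 0.719). Ctla4 had a ratio of 0.135 (0.0719 to 0.26), with 64.7% of its monocyte-like UMIs in 1 cell. Of 8 receptors compared, 3 were at least 2-fold higher and 1 at least 2-fold lower, beside 15.9% and 8.92% (24.9% together) of 11597 genes. The intermediate cells held Entpd1 at 63.1 CPM, against 61 in macrophage-like cells, and Pdcd1 at 0.853, against 4.71, ratios of 1.03 (0.872 to 1.22) and 0.181 (0.0218 to 0.658). At least 2-fold, 0 of the 7 receptors compared were higher and 2 lower, beside 3.94% and 9.42% (13.4% together) of 10508 genes. Over monocyte-like cells they had ratios of 1.43 (1.16 to 1.76) for Entpd1 and 0.565 (0.437 to 0.722) for Cd244. This put 0 of 4 receptors at least 2-fold higher and 0 at least 2-fold lower, beside 2.89% and 3.54% (6.43% together) of 8878 genes.

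Nonclassical monocyte-like cells held the highest Havcr2 of the classes with at least 30 cells, at 119 (87.6 to 159) CPM, against 44.3 (39.1 to 50.1) in monocyte-like cells, a ratio of 2.69 (1.93 to 3.68). This Havcr2 level rests on 47 UMIs, and with cells thinned to 2000 UMIs the cDC1-like class was highest instead. Cd244 in nonclassical monocyte-like cells was at 114, against 60.4 in monocyte-like cells, a ratio of 1.89 (1.35 to 2.58). Among 3 receptors compared, 1 passed 2-fold upward and 0 downward, beside 7.26% and 10.6% (17.9% together) of 7520 genes. In cDC1-like cells, dendritic cells that cross-present antigen, Entpd1 was at 62, against 26.8 in cDC2-like cells, a ratio of 2.31 (1.59 to 3.36). Havcr2 was at 75, against 42, a ratio of 1.79 (1.3 to 2.45), and Cd244 at 33.3, against 63.5, a ratio of 0.525 (0.353 to 0.765). Past 2-fold were 1 of 3 receptors on the higher side and 0 on the lower side, beside 5.21% and 10.5% (15.7% together) of 7076 genes. Over macrophage-like cells cDC1-like cells had a Lag3 ratio of 2.94 (1.45 to 5.35) and a Havcr2 ratio of 1.58 (1.25 to 1.96). The Lag3 ratio rests on 11 UMIs in cDC1-like cells. Both Lag3 levels, 10.2 and 3.46 CPM, lie below its free RNA level of 20.7 CPM. Of 7 receptors compared, 1 was at least 2-fold higher and 1 at least 2-fold lower, beside 5.98% and 20% (26.0% together) of 9563 genes. The 11 pDC-like cells held Lag3 at 291 (207 to 397) from 39 UMIs, too few cells for a comparison.

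Migratory DC-like cells, which carry antigen to lymph nodes, were low in the shared receptors. Havcr2 was at 6.24 CPM, against 42 in cDC2-like cells, Entpd1 at 1.56, against 26.8, and Cd244 at 7.8, against 63.5. At least 2-fold, 0 of the 3 receptors compared were higher and 3 lower, beside 10.4% and 23.8% (34.2% together) of 6714 genes. Over macrophage-like cells the ratios were 0.131 (0.0357 to 0.336) for Havcr2 and 0.202 (0.0654 to 0.471) for Cd244. This put 0 of 5 receptors at least 2-fold higher and 4 at least 2-fold lower, beside 9.85% and 32.7% (42.6% together) of 8820 genes. Ligands of PD-1 were higher there. Cd274, which encodes PD-L1, was at 329 in migratory DC-like cells, against 48.3 in cDC2-like cells, a ratio of 6.81 (5.34 to 8.74). Pdcd1lg2, which encodes PD-L2, was at 169, against 11.7, a ratio of 14.4 (9.18 to 23.4), and Cd80, a ligand of CTLA-4, at 60.9, against 10.7, a ratio of 5.67 (3.28 to 10). Cd48, the ligand of 2B4, was lower at 112, against 332. Of 9 ligand genes compared, 3 were at least 2-fold higher and 3 lower, beside the 10.4% and 23.8% of all genes in this comparison.

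CD8 T-like cells split into 2 large clusters on variable genes that include none of the 9 receptors. The 96 cells of one were led by Prc1, Gzmc, Cdc20 and Cenpf, had Xist among the leading genes, and held 35.4% cycling cells at a median of 15495.5 UMIs. The 112 cells of the other were led by Il7r, Gzma and Klf2 and held 3.57% cycling cells at a median of 5682.5 UMIs. Havcr2 was at 87.1 CPM in the Prc1 cluster, against 13.6 in the Il7r cluster, a ratio of 6.4 (3.3 to 14.2). Lag3 was at 448, against 72.6, a ratio of 6.17 (4.61 to 8.42), and Pdcd1 at 139, against 34.8, a ratio of 4.01 (2.62 to 6.42). Cd244 had a ratio of 2.83 (1.13 to 9.14) and Entpd1 of 2.77 (1.1 to 8.94), each from 5 UMIs in the Il7r cluster. Ctla4 did not separate the clusters, with a ratio of 1.01 (0.78 to 1.31). Among 7 receptors compared, 5 passed 2-fold upward and 0 downward, beside 17.9% and 7.4% (25.3% together) of 6929 genes. Depth and cycling differ between the clusters as given, and their part in the result was not tested.

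The Prc1 cluster also held cells with a reporter RNA. Xist, the RNA of the inactive X chromosome in females, and dsredexpress1 were the leading features of the CD8 T-like class. In the Prc1 cluster 38 of 96 cells had a dsredexpress1 UMI, 38 had an Xist UMI and 36 had both. In the Il7r cluster 1 of 112 cells had dsredexpress1 and 0 had Xist. Neither RNA had a UMI in CD4 T-like, Treg-like or NK-like cells, and macrophage-like cells held dsredexpress1 at 0.0666 CPM and Xist at 0.146. The origin of these cells is not stated in the sources used here. A split by these RNAs was made after seeing them, and a cell with neither may carry one unseen. The 40 Prc1 cluster cells with either RNA held Lag3 at 381 CPM, against 502 in the 56 with neither, a ratio of 0.758 (0.663 to 0.866). Ratios were 0.696 (0.507 to 0.95) for Havcr2, 0.798 (0.625 to 1.01) for Pdcd1, 1.24 (0.965 to 1.6) for Ctla4 and 0.439 (0.232 to 0.792) for Cd38. Without the cells that had either RNA, the Prc1 cluster over the Il7r cluster gave 6.96 (5.17 to 9.59) for Lag3, 7.3 (3.72 to 16.4) for Havcr2, 4.76 (3.02 to 7.88) for Pdcd1 and 0.931 (0.695 to 1.25) for Ctla4.

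**Figure D2:**
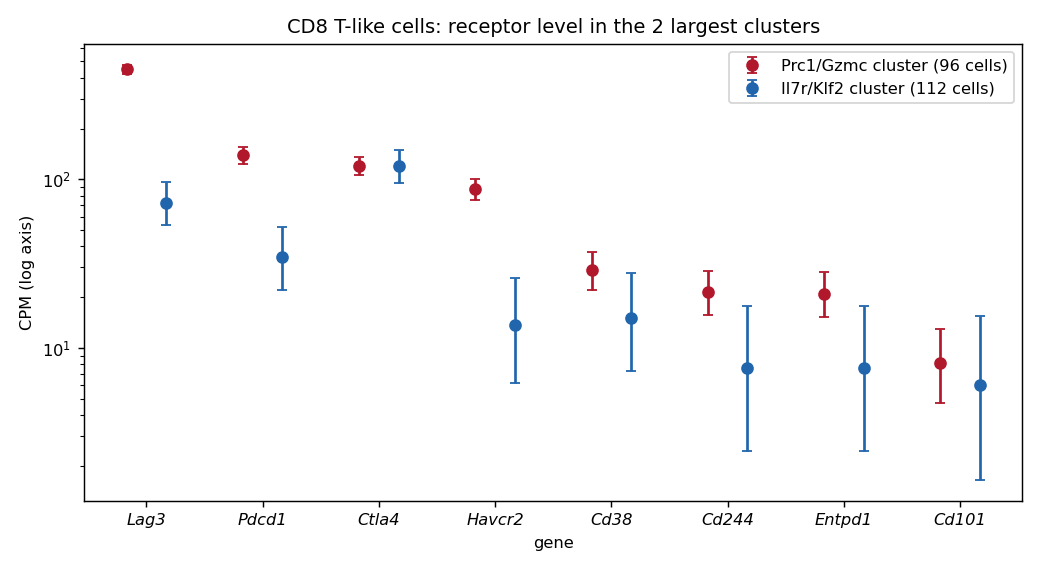
CPM of 8 receptors on a log axis in the Prc1 and Il7r clusters of CD8 T-like cells, with 95% Poisson intervals as bars; Tigit is left out for its few UMIs. Lag3, Pdcd1 and Havcr2 are higher in the Prc1 cluster with intervals that do not overlap, whereas the Ctla4 points sit at the same height.

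Other genes took part in the clustering, so their values only describe the clusters. Tcf7, a factor of self-renewing T cells, was at 16.7 CPM in the Prc1 cluster, against 136 in the Il7r cluster, and Eomes at 56.2, against 98.4. Batf was at 252, against 63.6, and Tox, a factor of exhausted T cells, at 169, against 90.8. The costimulatory receptor Tnfrsf9 (4-1BB) was at 437, against 27.2, while Cd28 was at 118, against 363.

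As shares of all UMIs, Lag3 and Pdcd1 were lower in cycling CD8 T-like cells, by less than 2-fold over the whole class. A cell counted as cycling with at least 2 cell cycle UMIs after thinning, which gave 40 cycling cells, against 181 others, at median depths of 25746 and 6557 UMIs; the part of depth was not tested. Lag3 was at 249.5 CPM, against 389, a ratio of 0.641 (0.559 to 0.734), and Pdcd1 at 81.6, against 122, a ratio of 0.668 (0.523 to 0.848). Past 2-fold were 0 of 7 receptors on the higher side and 0 on the lower side, beside 8.08% and 5.94% (14.0% together) of 7302 genes. Within the Prc1 cluster, a comparison chosen after seeing the data, Lag3 was at 266 in 34 cycling cells, against 672 in 62 others, a ratio of 0.395 (0.344 to 0.454). These levels came from 308 and 633 Lag3 UMIs at median depths of 28248.5 and 12612 UMIs per cell, and the part of depth was not tested. Cell cycle genes were not left out of the clustering that made this cluster, so the split is a description only. Pdcd1 had a ratio of 0.415 (0.322 to 0.531), Havcr2 of 0.481 (0.351 to 0.654) and Ctla4 of 0.605 (0.467 to 0.782). Of all 40 cycling CD8 T-like cells 19 had dsredexpress1 or Xist, 18 of them in the Prc1 cluster. Without cells that had either, the CD8 T-like ratios were 0.546 (0.446 to 0.663) for Lag3, 0.419 (0.279 to 0.61) for Pdcd1 and 0.439 (0.30 to 0.627) for Ctla4, against 0.708 for Ctla4 with them. Within the Prc1 cluster they were then 0.286 (0.233 to 0.349) for Lag3, 0.228 (0.15 to 0.335) for Pdcd1 and 0.353 (0.229 to 0.533) for Ctla4. Median depths there were 18919 UMIs in 16 cycling cells and 10957.5 in 40 others.

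Macrophage-like clusters differed in these receptors. Pdcd1 was at 10.5 CPM in the cluster led by the mitotic genes Pif1 and Cdc20, 6.65 in that led by Asb2 and Htra4 and 5.82 in that led by Hist1h1b and Rrm2. It was at 0.721 in the cluster led by Gpr34 and Atp6v0d2 and 0.263 in that led by Ly6i and Chil3. Cd244 was at 56.1 in the Pif1 cluster, 45 in the cluster led by Ifnb1, where Pdcd1 was at 1.37, 15.1 in the Gpr34 cluster and 14.5 in the cluster led by Lyve1 and Retnla. Entpd1 was at 39.8 in the Pif1 cluster and 91.2 in the Gpr34 cluster. Lag3 was at 6.57 in the Gpr34 cluster and 1.99 in the Hist1h1b cluster. Cd38 was at 21.5 (15.7 to 28.7) in the Lyve1 cluster, with 26.1% of its UMIs there in 1 cell. It was at 15.1 (13 to 17.4) in the Gpr34 cluster and 2.41 in the Pif1 cluster. Havcr2 was at 24.8 in the Lyve1 cluster and between 42.9 and 55.5 in the other 7 clusters drawn.

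**Figure D3:**
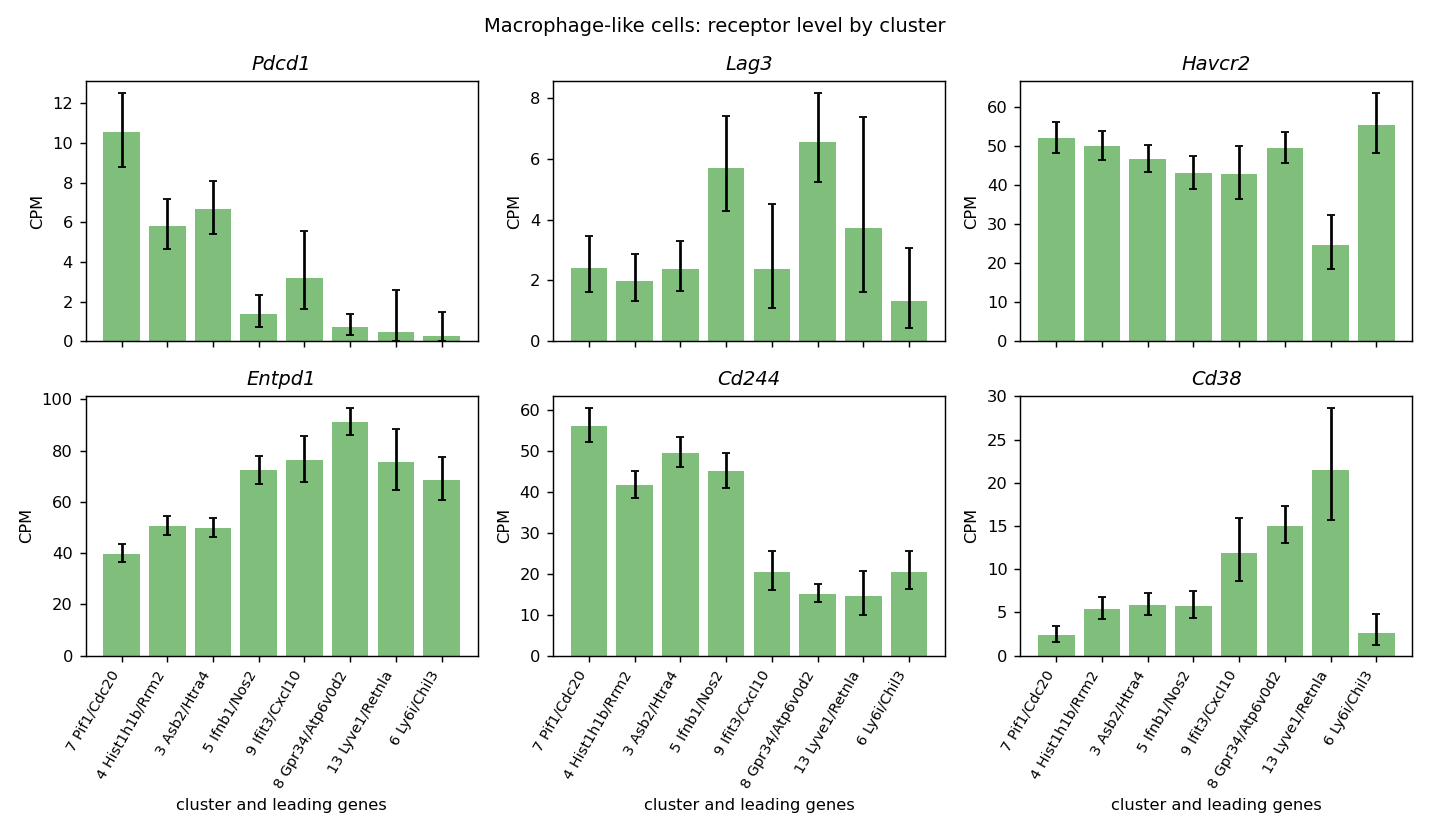
CPM of 6 receptors in 8 macrophage-like clusters, named by leading genes, with 95% Poisson intervals; a further cluster of 43 shallow cells is left out. Pdcd1 is highest in the Pif1, Asb2 and Hist1h1b clusters, and Cd244 is high in these and in the Ifnb1 cluster. Entpd1 is highest in the Gpr34 cluster at 91.2 CPM. Cd38 is highest in the Lyve1 cluster at 21.5, with an interval that overlaps that of the Gpr34 cluster.

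In 635 cycling macrophage-like cells Pdcd1 was at 8.01 CPM, against 2.96 in 1750 others, at median depths of 39879 and 26508 UMIs, a ratio of 2.71 (2.18 to 3.37). Cd244 had a ratio of 1.44 (1.33 to 1.55), Entpd1 of 0.736 (0.69 to 0.785), Lag3 of 0.64 (0.476 to 0.85) and Cd38 of 0.555 (0.452 to 0.678). Of 8 receptors compared, 1 was at least 2-fold higher and 0 at least 2-fold lower, beside 4.0% and 3.05% (7.05% together) of 11922 genes. Pdcd1 thus had opposite signs in cycling macrophage-like and cycling CD8 T-like cells, and the difference between these effects was not tested.

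Pdcd1 was seen in 156 macrophage-like cells, 39 with at least 3 UMIs and the highest with 13. The 251 cells with T and C1q markers together, which were set aside, held Pdcd1 at 15 (12.7 to 17.7) CPM, against 4.71 (4.23 to 5.23) in macrophage-like cells. Macrophage-like cells were gated to be low in T markers, and within this gate a split was made after seeing the data. The 2091 macrophage-like cells with no T marker UMI held Pdcd1 at 5.1 CPM, against 2.41 in the 294 with any, a ratio of 2.12 (1.42 to 3.29). Ctla4 was at 0.295, against 1.02. Monocyte-like cells with no T marker UMI had no Pdcd1 UMI, so Pdcd1 was at least 8.82-fold higher in such macrophage-like cells against a floor of 3 counts, with a lower 95% limit of 7.13. The part of T cell RNA in macrophage-like Pdcd1 was not tested. After thinning Pdcd1 was seen in 0.721% (0.421 to 1.15) of macrophage-like cells and 0 of 458 monocyte-like cells, where 3 cells would be 0.655%, within the macrophage-like interval, so these shares are not separated at this depth. Before thinning the shares were 6.54% and 0.218%.

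Positions were read as the spatial barcodes ZC1, ZC2 and ZC3, whose tumour regions are not stated in the sources used here. Median spatial UMIs per cell were 182 for ZC1, 380 for ZC2 and 838.5 for ZC3. Assigning a cell to a barcode with at least 10 UMIs and 2 times the next left 13, 20 and 57 CD8 T-like cells and 5, 10 and 1452 macrophage-like cells in ZC1, ZC2 and ZC3. CD8 T-like cells of ZC1 then had Lag3 at 85.6 CPM, against 317 in ZC3, a ratio of 0.27 (0.0984 to 0.594). At least 2-fold, 0 of the 4 receptors compared were higher and 1 lower, beside 7.9% and 24.8% (32.7% together) of 3177 genes. Macrophage-like Cd244 had a ratio of 0.32 (0.0387 to 1.16) in ZC1 and 0.288 (0.0594 to 0.844) in ZC2 over ZC3, from 2 and 3 UMIs. This put 0 of 3 receptors at least 2-fold higher and 1 at least 2-fold lower, beside 4.37% and 12.4% (16.8% together) of 5145 genes for ZC1. Among 3 receptors compared, 0 passed 2-fold upward and 1 downward, beside 4.03% and 10.6% (14.6% together) of 6625 genes for ZC2.

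Scaling each barcode by its share in free RNA gave more even groups, with 58, 50 and 38 CD8 T-like cells and 253, 249 and 686 macrophage-like cells. CD8 T-like Lag3 was at 181 CPM in ZC1, 423 in ZC2 and 337 in ZC3, and Pdcd1 at 45.8, 117 and 88.9. Ctla4 was at 127, 122 and 110.4. ZC1 over ZC3 was 0.537 (0.412 to 0.694) for Lag3 and 0.515 (0.297 to 0.862) for Pdcd1. Past 2-fold were 0 of 4 receptors on the higher side and 0 on the lower side, beside 6.29% and 11.2% (17.5% together) of 4405 genes. Without cells that had dsredexpress1 or Xist, the Lag3 ratio of ZC1 over ZC3 was 0.492 (0.363 to 0.659), just past 2-fold, and the Pdcd1 ratio 0.505 (0.264 to 0.923). Without these cells ZC1 over ZC2 was 0.409 (0.304 to 0.545) for Lag3 and 0.334 (0.179 to 0.588) for Pdcd1. In all CD8 T-like cells, ZC1 over ZC2 was 0.428 (0.332 to 0.546) for Lag3 and 0.392 (0.231 to 0.636) for Pdcd1. Of 5 receptors compared, 0 were at least 2-fold higher and 2 at least 2-fold lower, beside 2.56% and 5.37% (7.93% together) of 4691 genes. The Prc1 cluster made up 15.5% (7.35 to 27.4) of CD8 T-like cells in ZC1, 50% (35.5 to 64.5) in ZC2 and 63.2% (46 to 78.2) in ZC3. Within it Lag3 was at 485 in 9 cells of ZC1, against 373 in 24 cells of ZC3, a ratio of 1.3 (0.966 to 1.72), and Pdcd1 had a ratio of 1.2 (0.63 to 2.15). Over the 25 cells of ZC2 in this cluster, ZC1 had ratios of 0.893 (0.671 to 1.17) for Lag3 and 0.747 (0.401 to 1.3) for Pdcd1.

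Other classes were compared between ZC1 and ZC3 in the same way. CD4 T-like cells had ratios of 0.147 (0.0546 to 0.34) for Pdcd1 and 0.19 (0.108 to 0.321) for Lag3, with 74.2% of the ZC3 Pdcd1 UMIs in 1 cell. At least 2-fold, 0 of the 3 receptors compared were higher and 3 lower, beside 8.5% and 4.71% (13.2% together) of 1400 genes. In Treg-like cells Ctla4 had a ratio of 0.848 (0.682 to 1.05) and Lag3 of 0.946 (0.596 to 1.52). This put 0 of 2 receptors at least 2-fold higher and 0 at least 2-fold lower, beside 5.22% and 2.68% (7.9% together) of 2760 genes. In monocyte-like cells Havcr2 had a ratio of 0.927 (0.616 to 1.39) and Cd244 of 0.756 (0.552 to 1.03). Among 3 receptors compared, 0 passed 2-fold upward and 0 downward, beside 2.91% and 1.93% (4.84% together) of 6698 genes. In cDC2-like cells Cd244 had a ratio of 0.571 (0.302 to 1.04). Past 2-fold were 0 of 3 receptors on the higher side and 0 on the lower side, beside 5.4% and 3.07% (8.47% together) of 3944 genes. In NK-like cells it had a ratio of 1.51 (0.527 to 5.94), and no other receptor was compared. Of 1 receptor compared, 0 were at least 2-fold higher and 0 at least 2-fold lower, beside 8.92% and 6.64% (15.6% together) of 1189 genes.

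In macrophage-like cells Cd244 was at 27.3 CPM in ZC1, 27.2 in ZC2 and 51.4 in ZC3, with ratios over ZC3 of 0.531 (0.452 to 0.621) and 0.529 (0.452 to 0.616). Cd38 was at 9.2, 6.59 and 4.16, with a ZC1 ratio of 2.21 (1.58 to 3.07). Cd101 had ratios of 2.13 (1.4 to 3.21) in ZC1 and 2.23 (1.49 to 3.31) in ZC2, and Entpd1 of 1.25 (1.12 to 1.4) and 1.51 (1.37 to 1.67). At least 2-fold, 2 of the 7 receptors compared were higher and 0 lower, beside 3.52% and 1.58% (5.1% together) of 10849 genes for ZC1. This put 1 of 7 receptors at least 2-fold higher and 0 at least 2-fold lower, beside 1.98% and 1.44% (3.42% together) of 10815 genes for ZC2. The Lyve1 cluster made up 19.4% (14.7 to 24.8) of macrophage-like cells in ZC1, 3.21% (1.4 to 6.23) in ZC2 and 0.875% (0.322 to 1.89) in ZC3. Within the Asb2, Ifnb1 and Gpr34 clusters the Cd244 ratio of ZC1 over ZC3 was 0.665 (0.453 to 0.949), 0.655 (0.435 to 0.959) and 0.647 (0.371 to 1.1). Cd38 ratios within them were 2.91 (0.906 to 8.2), 2.97 (0.717 to 11.7) and 0.819 (0.412 to 1.58).

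**Figure D4:**
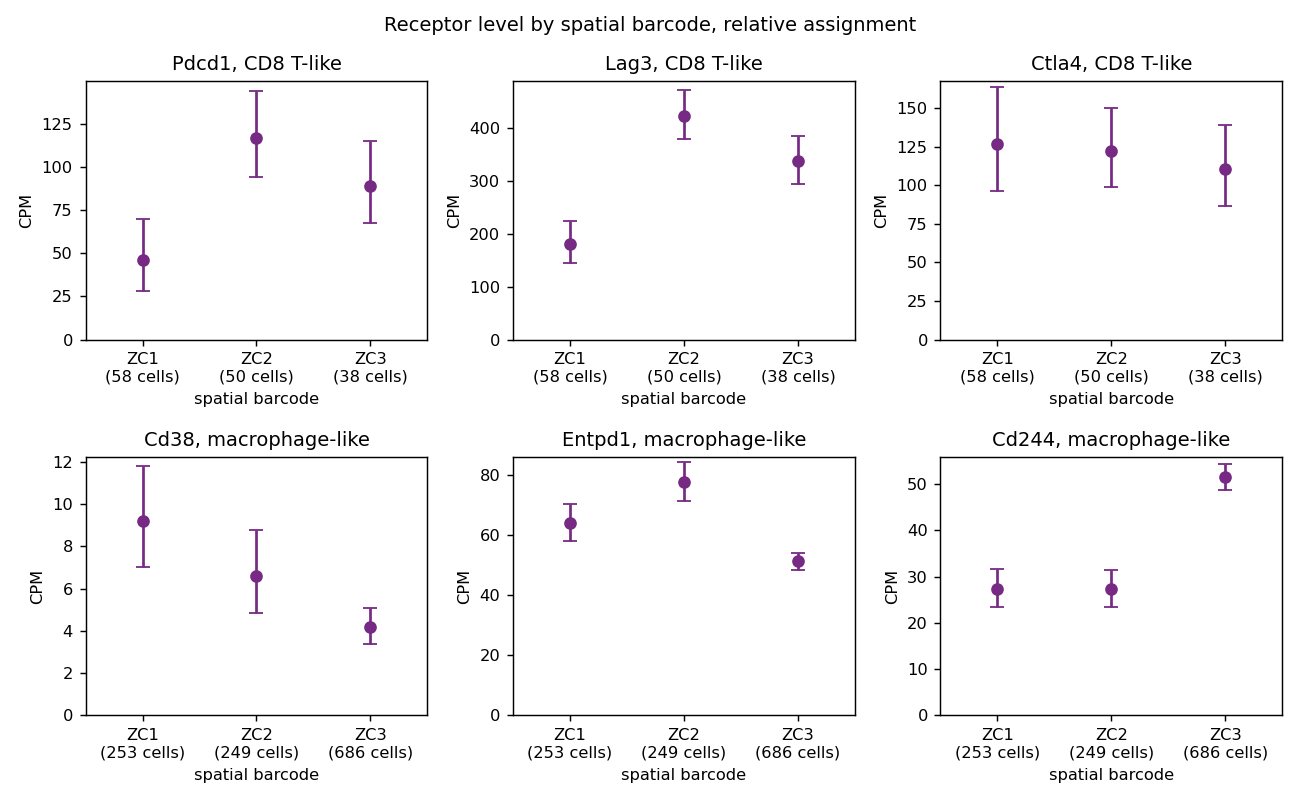
CPM by spatial barcode after scaling to free RNA, for Pdcd1, Lag3 and Ctla4 in CD8 T-like cells (top) and Cd38, Entpd1 and Cd244 in macrophage-like cells (bottom), with 95% Poisson intervals and cell numbers. Pdcd1 and Lag3 are lowest in ZC1, and macrophage-like Cd244 is highest in ZC3 at 51.4 CPM.

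Other genes of these pathways were set between CD8 T-like and macrophage-like cells, where 12.3% of 10977 genes were at least 2-fold higher and 19.9% lower. All 7 costimulatory receptors compared were at least 2-fold higher in CD8 T-like cells, with Cd28 at 167 CPM, against 0.706. Of 14 exhaustion and memory factors 12 were higher and none lower, with Tox at 139, against 0.20, and Id3 at 3.92, against 5.59. Other inhibitory receptors split, with 4 higher and 7 lower of 11. Klrc1 was at 109, against 0.106, and Lair1 at 21.6, against 259. Ligands had 2 higher and 3 lower of 12, with Cd274 at 46.7, against 70.3. Of purine and NAD genes 2 were higher and 3 lower of 8. The ligand counts lie near the shares over all genes, and the purine and NAD counts lie above them but rest on 8 genes. In Treg-like cells Nt5e, whose product CD73 makes adenosine from the product of CD39, was at 38.4, against 5.56 in CD8 T-like cells. The costimulatory receptors Tnfrsf4 (OX40) and Icos had ratios of 5.94 (5.36 to 6.59) and 4.6 (3.85 to 5.5) there, and Cd226, which competes with TIGIT for ligand, of 0.202 (0.108 to 0.348).

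The pattern of each receptor over the 12 classes of at least 30 cells was set beside all genes with at least 200 UMIs by Pearson correlation of log2(CPM + 1). The points share 1 library and differ in depth, so these are descriptions. Closest to Pdcd1 were Syt11 (0.97), Cxcr6 (0.95) and Fam169b (0.94), to Lag3 Fars2 (0.95), 1700097N02Rik (0.95) and Nol7 (0.95), and to Ctla4 Camk4 (0.97), Trat1 (0.97) and Cd6 (0.97). Closest to Tigit were Gimap8 (0.98), Podnl1 (0.98) and Gimap3 (0.98), and to Havcr2 Bbip1 (0.94), Cd300c2 (0.91) and Susd3 (0.90). Closest to Entpd1 were Twf2 (0.91), Ripk3 (0.91) and Atp8a1 (0.89), and to Cd244 Tmem243 (0.93), Tm6sf1 (0.93) and AB124611 (0.92). Closest to Cd101 were Slamf6 (0.94), Notch1 (0.94) and Stambpl1 (0.93), and to Cd38 Rhot2 (0.90), Sp4 (0.79) and Sh2d3c (0.78). Among the receptors Tigit and Ctla4 (0.91) and Pdcd1 and Lag3 (0.90) were most alike.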

How the data were processed

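Gene and spatial barcode UMI counts were deposited as 1 unfiltered matrix, made with Cell Ranger 4.0.0 on mm10 per the submitters' processing notes, and are not normalized. The receptors, lists and markers were chosen with earlier results of these data known. Cells needed 1000 UMIs, 500 genes and no more than 10% mitochondrial UMIs. Classes were set per cell by marker thresholds (for example T list 1000 and C1q 2000 CPM) that were chosen from marker levels after seeing the data. No doublet caller was run; cells with T and C1q markers together were set aside. Counts were summed per class, with exact Poisson intervals for levels, Clopper-Pearson intervals for shares and exact conditional binomial intervals for ratios. A count of 0 was given a limit of 3 counts in place of an interval, also in ratios written with "at least". Ratios were read for genes with 30 UMIs over both sets and 3 expected in the smaller, and 2-fold stands in for a call, since 1 library allows no test. Named genes are the 9 receptors, the 3 genes most alike each of them, the 2 highest and 2 lowest ratios of a list where it is described, and list genes known to act with a receptor. Clustering used scanpy 1.11.5 and the Leiden method without the receptors. Cluster comparisons, the spatial splits within clusters the T marker split of macrophage-like cells and the split by reporter RNA were added after seeing the data. The code was tested on simulated data. Python 3.11.15, numpy 2.4.6 and scipy 1.17.1 were used.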

Additional observations from a re-analysis of the deposited data

How the results depend on the processing

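Only counting error is covered, 1 library was measured, and the pDC-like, cDC1-like, migratory DC-like and nonclassical monocyte-like classes rest on few cells. No paired analysis was possible because there was 1 gene expression library and no replicate numbers. Numbers of receptors past 2-fold are given here, with the reported value in parentheses. CD8 T-like over macrophage-like cells (7) stayed within 1.5 times in the alternatives run. Thinning to 2000 UMIs gave 1 for Treg-like (5), 0 for CD4 T-like (1) and 3 for NK-like (6) over CD8 T-like cells, 2 for macrophage-like over monocyte-like (4), 0 for cDC1-like (1) and 0 for migratory DC-like (3) over cDC2-like, where no receptor kept enough UMIs, and 0 for macrophage-like ZC1 and ZC2 over ZC3 (1 each). It kept the highest class of 5 of 9 receptors, and the other settings kept 7 or more. CD4 T-like over CD8 T-like gave 2 with doubled marker thresholds, without the top cell of each gene and with no minimum UMIs, 3 as a mean over cells and 5 by cluster. cDC1-like over cDC2-like gave 3 with doubled thresholds, 4 with no minimum, and 2 at 5% mitochondrial UMIs, as a mean over cells and without the top cell. Cycling over other CD8 T-like cells (0) gave 1 at 5% mitochondrial UMIs and 2 with no minimum. CD8 T-like ZC1 over ZC3 (1) gave 0 at 5% mitochondrial UMIs and by relative assignment, 2 by cluster and 4 with no minimum. Macrophage-like ZC1 over ZC3 gave 0 by cluster and without the top cell, 2 by relative assignment and 6 with no minimum. Macrophage-like ZC2 over ZC3 gave 2 with doubled thresholds and without the top cell, 5 with no minimum, and 0 at 20 spatial UMIs and 3 times the next, where the log2 ratio of Cd244 was 0.44 instead of -1.79. The cause was not tested. Of 589 single receptor ratios under an alternative, 524 stayed within the reported interval, 64 left it and 1 past 2-fold changed sign. Among the other ratios, 26 that were under 2-fold as reported changed sign, among them Pdcd1 in CD4 T-like over CD8 T-like cells, at -1.54 by cluster instead of 0.60 on the log2 scale.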
